A study of Mus musculus with 22 samples.

Results

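The Ly6 family of surface proteins was followed through 10 genes, Ly6a, Ly6c1, Ly6c2, Ly6d, Ly6e, Ly6g, Ly6i, Ly6k, Ly6g6c and Ly6g6d, of the 46882 genes in the deposited table. The genes were taken by name, and the family was picked because Ly6a was higher in tumors of wild-type mice than in tumors labelled RAG1-/-. The values of every member in that contrast, and of Ly6a in the tumors of either genotype against another sample type, are therefore a description and carry no test. Of the 16 RNA libraries, 2 were from cultured MC38 cells and 2 from wild-type skin labelled day 23. Another 6 were from wild-type tumors, 3 taken at day 23 and 3 at day 46, and 6 from tumors labelled RAG1-/-, 3 taken at day 13 and 3 at day 23. MC38 is a mouse colon carcinoma line of C57BL/6 origin, and its libraries carry the label day 0. The tumors grew from MC38 cells placed under the skin of the left flank of female mice. Wild-type mice, skin included, were of the strain C57BL/6N and RAG1-/- mice of B6.129S7-Rag1tm1Mom/J. All were 8 to 12 weeks old, for tumor-bearing mice the age when MC38 cells were injected, so age at sampling rose with the day. RAG1 is part of the recombinase that assembles antigen receptor genes, so mice without it make no mature T or B cells but keep innate leukocytes. The model is 1 transplanted line, each RNA sample is a piece of a divided tumor, and the genotypes share day 23 only.

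Ly6 proteins are small, mostly attached to the outer membrane leaflet by a glycosylphosphatidylinositol (GPI) anchor, and built on a fold of loops held by disulfide bonds. Several are lineage markers of mouse leukocytes, and several are induced by interferons. Ly6a is Sca-1, a marker of stem cells and activated lymphocytes. Ly6c1 and Ly6c2 encode the Ly-6C antigens of monocytes, T cells and endothelium, Ly6g marks neutrophils, Ly6e is an interferon-induced protein that affects virus entry, and Ly6d is found on keratinocytes and lymphoid precursors. Ly6k is best known from testis, and Ly6g6c and Ly6g6d lie in the class III part of the major histocompatibility complex.

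By the GENCODE annotation of GRCm38, the build also called mm10, 8 members lie on chromosome 15 between positions 74762056 and 75159126. Ly6a spans chr15:74994877-74998031 on the minus strand, Ly6i chr15:74979534-74983430 on the minus strand and Ly6e chr15:74955051-74959905 on the plus strand. Ly6c1 (chr15:75044018-75048830, minus), Ly6c2 (chr15:75108158-75111970, minus) and Ly6g (chr15:75155240-75159126, plus) follow. Ly6d (chr15:74762056-74763620) and Ly6k (chr15:74796874-74799986) lie at the other end of the cluster, both on the minus strand. The other 2 members are on chromosome 17, Ly6g6c at chr17:35065388-35070050 on the plus strand and Ly6g6d at chr17:35071443-35078065 on the minus strand.

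RefSeq promoter windows of GRCm38.p6 were matched for 5 of the 10 members, Ly6c1, Ly6c2, Ly6g, Ly6g6c and Ly6g6d, and not for Ly6a, Ly6d, Ly6e, Ly6i and Ly6k. The 250 bases before the outermost start of Ly6c1 (chr15:75048838-75049087, minus strand), Ly6c2 (chr15:75111972-75112221, minus strand) and Ly6g (chr15:75155011-75155260, plus strand) are shown because these genes are near copies whose levels across the libraries were unlike. Capitals mark the letters TATAAA, searched on both strands.
Ly6c1: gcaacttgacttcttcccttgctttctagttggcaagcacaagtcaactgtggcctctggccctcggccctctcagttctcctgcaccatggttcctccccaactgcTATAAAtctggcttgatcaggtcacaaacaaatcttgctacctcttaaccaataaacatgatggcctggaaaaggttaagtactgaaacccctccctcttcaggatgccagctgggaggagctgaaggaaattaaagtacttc
Ly6c2: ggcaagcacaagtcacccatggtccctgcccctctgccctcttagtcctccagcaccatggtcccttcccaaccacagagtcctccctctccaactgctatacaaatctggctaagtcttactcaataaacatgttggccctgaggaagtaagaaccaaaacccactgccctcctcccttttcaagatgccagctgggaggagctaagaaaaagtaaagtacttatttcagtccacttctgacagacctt
Ly6g: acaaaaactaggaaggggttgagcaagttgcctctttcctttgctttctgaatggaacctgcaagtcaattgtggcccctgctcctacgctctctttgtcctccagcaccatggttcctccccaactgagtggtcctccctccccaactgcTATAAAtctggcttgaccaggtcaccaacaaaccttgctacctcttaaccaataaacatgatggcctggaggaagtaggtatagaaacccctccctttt
In a global alignment, 170 of 210 aligned bases (81%) were identical between the Ly6c1 and Ly6c2 windows, 175 of 204 (85.8%) between Ly6c1 and Ly6g, and 139 of 171 (81.3%) between Ly6c2 and Ly6g. TATAAA occurred once in the windows of Ly6c1, Ly6g and Ly6g6c, starting at positions -143, -99 and -30 from the start site, and was not among the letters of the Ly6c2 and Ly6g6d windows. It was found in 12.4% of all 32851 windows of this length. The letters TTCNNNGAA, the core that STAT factors of the interferon response recognise, were in none of the 5 windows and in 7.02% of all windows. A match is a description of the letters only.

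The reads themselves come from near the 3′ ends, where the copies are also alike. Of the 50-base windows in the last 300 bases of the longest coding transcript, 29.9% of those of Ly6c1 were also present in Ly6c2, and 29.9% of those of Ly6c2 in Ly6c1. For the other 8 members no 50-base window was found in a transcript of another gene. At 22 bases, the shortest read kept, the shared part was 15.4% for Ly6a, 59.9% for Ly6c1, 57.7% for Ly6c2, 14% for Ly6g, 25.1% for Ly6i, 11.1% for Ly6g6c, 5.38% for Ly6e and 0 for Ly6d, Ly6k and Ly6g6d. The primary alignment of a short read may therefore lie on the wrong copy, and the split between Ly6c1 and Ly6c2 is the least certain. Exons of Ly6k overlap the antisense gene Gm17189 by 395 bases, those of Ly6g6d overlap Ly6g6e on the opposite strand by 229 bases and those of Ly6g6c overlap Mpig6b on the opposite strand by 22 bases. The strand setting of the counting is not given in the sources used here, so their reads cannot be told apart with certainty.

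Libraries held 5589151 to 26134241 reads on genes. Values are normalized counts, that is reads divided by the DESeq2 size factor of the library. On this scale 3 reads, taken as the floor of detection, were worth 1.33 to 6.38, which covers counting error only. Rag1, the targeted gene, went against the labels, with 23 reads in the 6 tumors labelled RAG1-/- and 1 read in the 6 wild-type tumors. Whether these 3′ reads lie in the deleted part is not known, so they check nothing. Igkc, the kappa light chain constant region, had a mean of 172 normalized counts in wild-type tumors and 0.513 in tumors labelled RAG1-/-, and Cd8a had 32.8 and 0.0736. The labels tumor cells and skin were checked against markers. Ptprc, carried by leukocytes, was at 517 to 916 normalized counts in the tumors and under the floor in MC38 cells, so the tumor samples also held leukocyte RNA. MC38 cells are of colon origin, and the summed level of 10 intestinal epithelium markers was 5.99 and 17.6 normalized counts in them. Keratinocyte markers summed to 436036 and 433746 normalized counts in skin replicates 1 and 2. Skeletal muscle markers summed to 80299 and 114811 there, so the skin samples also held muscle RNA. Skin replicate 2 stood apart from skin replicate 1 in the summed neutrophil markers (14505 against 2082 normalized counts) and monocyte markers (4064 against 1808). Most of that neutrophil sum came from S100a8 and S100a9, which reached 8797 and 5549 normalized counts in skin. Ltf and Ngp of the same list were at 0 in skin, so the sum is not a measure of neutrophils alone. Wild-type day 23 replicate 2 held more keratinocyte marker reads than the other tumors (2116 normalized counts against 231 to 700). RAG1-/- day 13 replicates 1 and 3 held the largest skeletal muscle marker sums of the tumors (7214 and 7013 normalized counts). Replicate 2 of that group held 277, and the other tumors at most 954. The part of this uneven tissue content in the Ly6 levels was not tested.

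**Figure D1:**
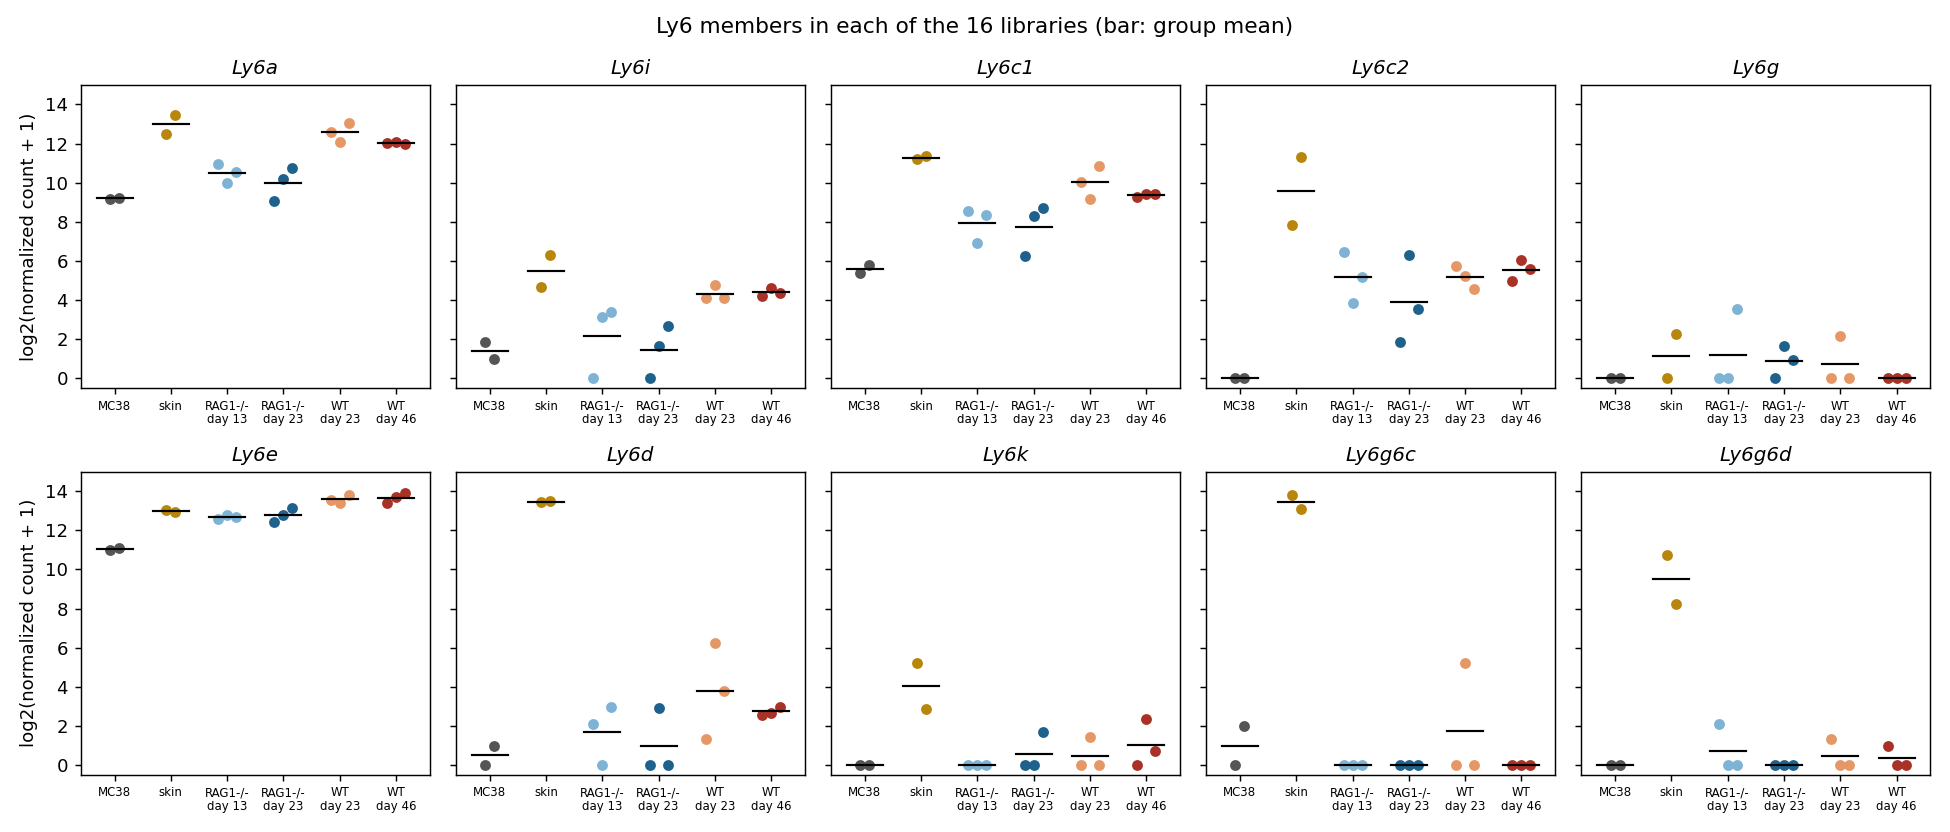
Each point is 1 library, the y axis is log2(normalized count + 1) and the bar is the group mean. Ly6a, Ly6i, Ly6c1 and Ly6e lay higher in all 6 wild-type tumors than in all 6 tumors labelled RAG1-/-. Ly6d, Ly6g6c and Ly6g6d were high in skin and low elsewhere, and Ly6k was low throughout, with its highest values in skin.

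Ly6a was lowest in MC38 cells, intermediate in tumors labelled RAG1-/- and highest in wild-type tumors and skin. Its normalized counts were 566 and 602 in MC38 cells. Tumors labelled RAG1-/- held 1976, 1013 and 1507 at day 13 and 526, 1158 and 1745 at day 23. Wild-type tumors held 6185, 4385 and 8591 at day 23 and 4124, 4295 and 4075 at day 46, and skin held 5820 and 11334. All wild-type tumors lay above all tumors labelled RAG1-/-, and 1 tumor labelled RAG1-/- of day 23 lay below both MC38 libraries. Ranked by mean, MC38 cells overlapped with tumors labelled RAG1-/- of day 23, the day 23 and day 13 tumors labelled RAG1-/- overlapped, and wild-type tumors of day 23 overlapped with skin.

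Wild-type tumors averaged 5276 ± 1808 normalized counts of Ly6a (SD, n = 6). The average of tumors labelled RAG1-/- was 1321 ± 528 (SD, n = 6), and the ratio of wild type to RAG1-/- was 3.99. The difference was 2.06 on the log2(normalized count + 1) scale over both days and 2.59 at day 23, the day both genotypes share. Among the 14746 genes that averaged 5 or more normalized counts in the 12 tumors this difference stood at percentile 99.7, where the median of all genes was 0.0065. These are the values the family was picked for. In bulk tissue fewer cells of a type and less RNA per cell cannot be told apart.

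Ly6i, a close neighbour of Ly6a in position, was at much lower counts and showed the same order of genotypes. It rests on 147 reads over the wild-type tumors and 30 over the tumors labelled RAG1-/-. Of its 22-base 3′ windows 25.1% also occurred in other genes, Ly6a among them. Whether some of its reads came from these genes was not tested. Wild-type tumors held 16.2, 26.4 and 15.8 normalized counts at day 23 and 17.6, 23.5 and 19.5 at day 46. Tumors labelled RAG1-/- held 0, 7.78 and 9.53 at day 13 and 0, 2.13 and 5.3 at day 23, all below the lowest wild-type tumor. The log2 difference was 2.55 over both days and 2.89 at day 23.

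Ly6c1 followed Ly6a. It was at 40.2 and 54.7 normalized counts in MC38 cells and at 2355 and 2650 in skin. Tumors labelled RAG1-/- held 371, 118 and 323 at day 13 and 75.9, 313 and 417 at day 23. Wild-type tumors held 1047, 572 and 1862 at day 23 and 611, 674 and 684 at day 46, so the genotypes did not overlap. The log2 difference of wild-type minus RAG1-/- was 1.85 over both days and 2.26 at day 23.

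Among tumors labelled RAG1-/-, those with more Ly6a held more Ly6c1. Over the 6 tumors labelled RAG1-/- Pearson's r of their log2 values was 0.923 (exact permutation p = 0.00417, adjusted p = 0.0333 over the 8 relations computed) and Spearman's rho was 0.943 (exact permutation p = 0.0167, adjusted p = 0.133), and r was 0.839 without the 2 tumors farthest from the median of Ly6a. Over the 6 wild-type tumors r was 0.977 (exact permutation p = 0.0278, adjusted p = 0.111) and rho was 0.486 (exact permutation p = 0.356, adjusted p = 0.711). There r was -0.54 without the 2 farthest tumors, so the relation rests on them. The days within a genotype held 3 tumors each, too few for a value of their own.

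Ly6c2 did not follow Ly6c1. MC38 cells held 0 reads of it, which allows up to 2.57 and 2.93 normalized counts. Tumors labelled RAG1-/- held 86.6, 13.3 and 35.2 normalized counts at day 13 and 2.62, 76.6 and 10.6 at day 23, and wild-type tumors held 52.4, 35.8 and 22.2 at day 23 and 30.3, 64.5 and 46.5 at day 46. The genotypes overlapped over most of their range, with a mean of 37.5 ± 36.0 (SD, n = 6) for RAG1-/- and 41.9 ± 15.5 (SD, n = 6) for wild type. Skin replicate 1 held 226 and skin replicate 2 held 2541.

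Ly6c2 took a different share of the Ly6c1 and Ly6c2 reads in different libraries. It was 8.77% (95% Wilson interval 7.59 to 10.1) in skin replicate 1 and 48.9% (47.4 to 50.5) in skin replicate 2. The latter library held more monocyte marker reads and more neutrophil marker reads, the latter mostly of S100a8 and S100a9. Their part in this difference was not tested. In MC38 cells it was 0 of 47 and 0 of 56 reads (upper bounds 7.56% and 6.42%). Among tumors labelled RAG1-/- the share ran from 2.48% (1.67 to 3.67) to 19.7% (14.6 to 26.0), and among wild-type tumors from 1.18% (0.703 to 1.97) to 8.73% (7.2 to 10.5). The ranges of the genotypes overlapped. The intervals cover counting error only, and reads from the part that both genes share can fall on either.

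**Figure D2:**
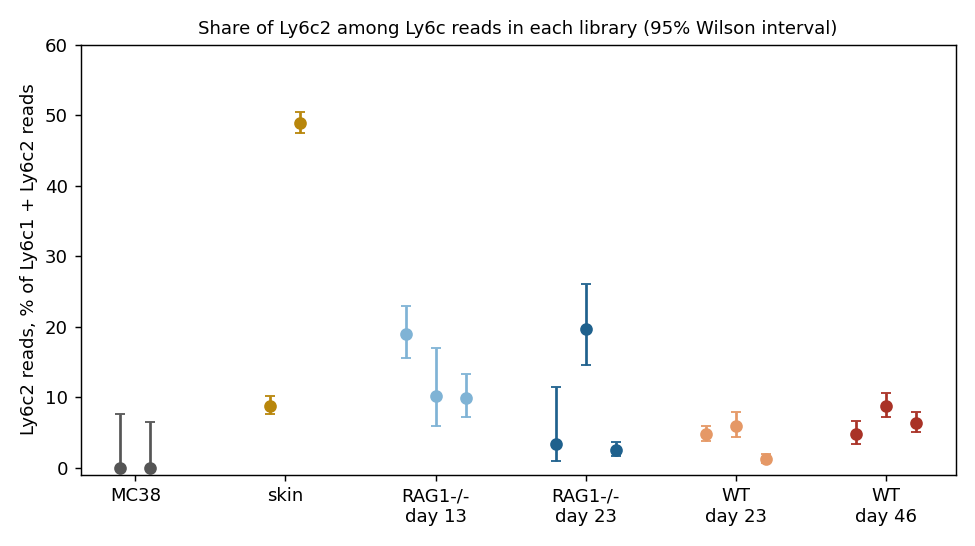
Each point is 1 library, the y axis is the percentage of Ly6c2 among the reads of Ly6c1 and Ly6c2 together, and the bar is the 95% Wilson interval. Skin replicate 2 stands at 48.9%, the other libraries at 0% to 19.7%.

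Ly6e varied least between tumors of a genotype among the 6 members above the filter, with a pooled log2 SD of 0.23. MC38 cells held 2006 and 2184 normalized counts, and skin 8329 and 7783. Tumors labelled RAG1-/- held 6214, 7127 and 6621 at day 13 and 5461, 7128 and 9058 at day 23. Wild-type tumors held 11962, 10739 and 14365 at day 23 and 10768, 13284 and 15185 at day 46, all above the highest tumor labelled RAG1-/- and above both skin libraries. The log2 difference between genotypes was 0.88 over both days and 0.80 at day 23.

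Ly6g was near the limit of detection throughout. It had 0 reads in both MC38 libraries and all 3 wild-type tumors of day 46, and exceeded the floor of its own library in 2 of the 16 libraries, RAG1-/- day 13 replicate 3 (10.5 normalized counts, 11 reads) and wild-type day 23 replicate 2 (3.41 normalized counts, 4 reads). Summed neutrophil markers reached 248 normalized counts in that day 13 tumor and were 49.4 to 198 in the other tumors. Skin replicate 2, with 14505 normalized counts of neutrophil markers, mostly of S100a8 and S100a9, held 3 reads of Ly6g. Why Ly6g was low beside these markers was not tested.

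Ly6d, Ly6g6c, Ly6g6d and, at low counts, Ly6k had their highest values in skin and low values elsewhere. Ly6a, Ly6c1, Ly6c2 and Ly6i also averaged highest in skin, so the rank alone does not set these genes apart. Ly6d was at 11058 and 11593 normalized counts in skin and at most 0.978 in MC38 cells. In tumors it lay between 0 and 6.91, apart from 73.3 in wild-type day 23 replicate 2 and 12.7 in wild-type day 23 replicate 3. These were the tumors with the largest sums of keratinocyte markers, 2116 and 700 normalized counts, and the part of skin in these samples was not tested. Ly6g6c was at 14332 and 8825 in skin, 36.7 in wild-type day 23 replicate 2, 2.93 in MC38 replicate 2 and 0 in the other 12 libraries. Ly6g6d was at 1729 and 298 in skin and at most 3.21 elsewhere. Ly6k was at 36.2 and 6.37 in skin (27 and 5 reads) and at most 4.03 elsewhere (6 reads, in wild-type day 46 replicate 2).

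In the contrast of genotypes 6 members averaged 5 or more normalized counts in the 12 tumors, Ly6a, Ly6c1, Ly6c2, Ly6d, Ly6e and Ly6i. In 4 of them, Ly6a, Ly6c1, Ly6e and Ly6i, all 6 wild-type tumors lay above all 6 tumors labelled RAG1-/-, in both days together and also at day 23 alone. Of all 14746 genes with that mean, 96 (0.651%) had this order. As the family was picked by this contrast, nothing is read from the count.

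MC38 cells and skin were compared to place the members in the line and in the tissue that surrounds the tumors. All 9 members that passed the filter were lower in MC38 cells than in skin (limma with trend, two-sided, Benjamini-Hochberg adjusted p under the threshold of 0.05), where 41.2% of 16780 genes tested were called lower and 20.8% higher. Ly6a, Ly6c1 and Ly6e averaged over 5 normalized counts in MC38 cells. The other 6, Ly6c2, Ly6d, Ly6i, Ly6k, Ly6g6c and Ly6g6d, averaged less there and passed the filter through skin only, so that they could hardly differ in the other direction, and their count supports nothing. Ly6d differed by -12.98 ± 0.38 (log2 difference ± SE, limma adjusted p = 0.000106) and Ly6g6c by -12.47 ± 0.70 (limma adjusted p = 0.000238). Ly6a differed by -3.80 ± 0.33 (limma adjusted p = 0.000716), Ly6c1 by -5.70 ± 0.22 (limma adjusted p = 0.00014) and Ly6e by -1.94 ± 0.12 (limma adjusted p = 0.000288). With 0 reads in MC38 cells against the floor of 3 reads per library, averaged over the group, Ly6c2 was at least 503-fold lower, Ly6g6d at least 369-fold lower and Ly6k at least 7.74-fold lower. These bounds rest on single skin libraries. Without skin replicate 2 that of Ly6c2 was 82.3-fold, and without skin replicate 1 those of Ly6g6d and Ly6k were 108-fold and 2.32-fold. Ly6i differed by -4.07 ± 0.71 (limma adjusted p = 0.00652), a call lost without skin replicate 1 or 2 (-4.89 and -3.24, limma adjusted p = 0.0553 and 0.0814). The difference of Ly6g6c was -11.48 without MC38 replicate 1 and -13.46 without MC38 replicate 2. The call of Ly6k was lost without MC38 replicate 1 or 2 (limma adjusted p = 0.058 and 0.0503) and that of Ly6g6c without skin replicate 1 (0.0525). The median of all genes was -0.40. After rescaling to the same total reads it was 0.01, 29.6% of genes were called higher and 34.3% lower, and all 9 members were still called. With 2 libraries a group an exact permutation test of a single gene cannot go below 0.333.

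The question of tumors against the cultured line is which members were higher once the cells grew in a host. In tumors labelled RAG1-/- 3 of the 5 members other than Ly6a that passed the filter were higher and none was lower, where 15.8% of 14708 genes were called higher and 7.55% lower. Of these members Ly6c2, Ly6d and Ly6i averaged under 5 normalized counts in MC38 cells and passed through the tumors, so they could hardly be called lower. Ly6e was higher by 1.71 ± 0.18 (log2 difference ± SE, limma adjusted p = 8.88e-07), Ly6c1 by 2.26 ± 0.53 (limma adjusted p = 0.00402) and Ly6c2 by 4.52 ± 0.84 (limma adjusted p = 0.000591), with all 6 tumors above both MC38 libraries. For Ly6c2 the fitted difference depends on the pseudocount (2.56 to 8.30 under other settings, and 3.93 without RAG1-/- day 23 replicate 2). Against the MC38 floor its mean was at least 13.6-fold higher, while RAG1-/- day 23 replicate 1 held 2 reads, under its own floor. Ly6a, not tested, stood 1.05 log2 units above MC38 cells with overlapping groups. Without MC38 replicate 1 the count was 2, as the call of Ly6c1 was lost (limma adjusted p = 0.076). Ly6i differed by 0.40 ± 0.85 (limma adjusted p = 0.791) and Ly6d by 0.82 ± 1.13 (limma adjusted p = 0.658). An exact permutation test of 6 against 2 cannot go below 0.0714, which Ly6c1, Ly6c2 and Ly6e reached. Rescaling to the same upper quartile moved the median of all genes from 0.06 to 0.17 and the shares called to 18.7% higher and 5.04% lower.

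The same MC38 libraries served the wild-type tumors. Ly6a, again not tested, stood 3.11 log2 units above them. Of the other 5 members that passed the filter 4 were higher and none lower, where 18.3% of 14708 genes were called higher and 9.61% lower. Here too Ly6c2, Ly6d and Ly6i averaged under 5 normalized counts in MC38 cells and passed through the tumors. They could hardly be called lower, so nothing is read from their part of the count. The differences were 2.59 ± 0.18 for Ly6e (limma adjusted p = 2.73e-09), 4.11 ± 0.53 for Ly6c1 (limma adjusted p = 9.26e-06), 5.34 ± 0.84 for Ly6c2 (limma adjusted p = 9.68e-05) and 2.95 ± 0.85 for Ly6i (limma adjusted p = 0.0146). Against the floor Ly6c2 was at least 15.2-fold higher (fitted difference 3.16 to 8.63 under other settings). The call of Ly6i was lost without either MC38 library, with limma adjusted p of 0.0602 and 0.171, and with a pseudocount of 0.1 (adjusted p = 0.11). Ly6d differed by 2.76 ± 1.13 (limma adjusted p = 0.08) and passed the threshold without wild-type day 23 replicate 1, its lowest wild-type library (limma adjusted p = 0.0224), and with DESeq2 (4.80, adjusted p = 0.0402). Rescaling to the same upper quartile moved the median of all genes from 0.05 to 0.16, with 21.2% called higher and 6.26% lower.

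In tumors labelled RAG1-/- 6 of the 7 members other than Ly6a that passed the filter were lower than in skin, while none was higher, where 35.9% of 16259 genes were called lower and 23.9% higher. Of these, Ly6g6c and Ly6g6d averaged under 5 normalized counts over the tumors and passed the filter through skin only, here and for the wild-type tumors, so their calls had to be lower ones. Ly6d and Ly6i averaged 2.71 and 4.12 normalized counts in tumors labelled RAG1-/- and passed through skin and the wild-type tumors. Their calls in tumors labelled RAG1-/- could therefore hardly be higher ones. Ly6a, not tested, had a difference of -2.74 (tumor minus skin). Ly6c1 differed by -3.45 ± 0.57 (limma adjusted p = 0.000118), Ly6c2 by -5.05 ± 1.03 (limma adjusted p = 0.000713) and Ly6i by -3.67 ± 0.85 (limma adjusted p = 0.00192). Ly6d, Ly6g6c and Ly6g6d differed by -12.15 ± 1.09, -13.46 ± 1.01 and -9.15 ± 0.72 (limma adjusted p = 3.59e-07, 6.29e-08 and 9.42e-08). With 0 reads in these tumors, Ly6g6c was at least 3302-fold lower by its floor. The difference of Ly6g6d was -7.88 without skin replicate 1 and -10.41 without skin replicate 2. Ly6e differed by -0.23 ± 0.19 (limma adjusted p = 0.307), and by 0.17 after rescaling to the same total, where the median of all genes moved from -0.20 to 0.19 and the shares called were 34.7% higher and 27.4% lower. Without skin replicate 2 the calls of Ly6c2 and Ly6i were lost (limma adjusted p = 0.0604 and 0.0658) and their differences were -3.30 and -2.85. Without skin replicate 1 these were -6.79 and -4.49, and without RAG1-/- day 23 replicate 2 that of Ly6c2 was -5.64.

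In wild-type tumors Ly6e was the one member called higher than in skin, by 0.65 ± 0.19 log2 units (limma adjusted p = 0.00956), and 5 of the 7 members that passed the filter, apart from Ly6a, were lower. In that comparison 22.8% of 16259 genes were called higher and 34.2% lower. Ly6c1 differed by -1.60 ± 0.57 (limma adjusted p = 0.0261) and Ly6c2 by -4.23 ± 1.03 (limma adjusted p = 0.00281). Ly6d, Ly6g6c and Ly6g6d differed by -10.22 ± 1.09, -12.58 ± 1.01 and -9.11 ± 0.72 (limma adjusted p = 2.22e-06, 1.34e-07 and 1.07e-07), and Ly6i by -1.12 ± 0.85 (limma adjusted p = 0.28). Ly6a, not tested, stood 0.68 log2 units below skin with overlapping libraries. Without skin replicate 2 only 3 members were called, as Ly6c1, Ly6c2 and Ly6e missed the threshold (limma adjusted p = 0.178, 0.15 and 0.0853), and the difference of Ly6c2 was -2.49. Without skin replicate 1 it was -5.97, and Ly6g6d was at -7.84 without skin replicate 1 and -10.38 without skin replicate 2. Without wild-type day 23 replicate 2 Ly6d and Ly6g6c were at -10.83 and -13.46, and without wild-type day 23 replicate 1 Ly6d was at -9.60. Without skin replicate 1 the calls of Ly6c1 and Ly6e were lost (limma adjusted p = 0.133 and 0.0503), and without wild-type day 23 replicate 2 that of Ly6c1 (0.0552). Rescaling to the same total moved the median of all genes from -0.18 to 0.21 and the shares called to 33.8% higher and 25.7% lower. The call of Ly6c1 was lost there (limma adjusted p = 0.0892), on the same upper quartile (0.05535) and with limma without trend (0.05171). Tumors of both genotypes were set against the same skin and MC38 libraries.

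**Figure D3:**
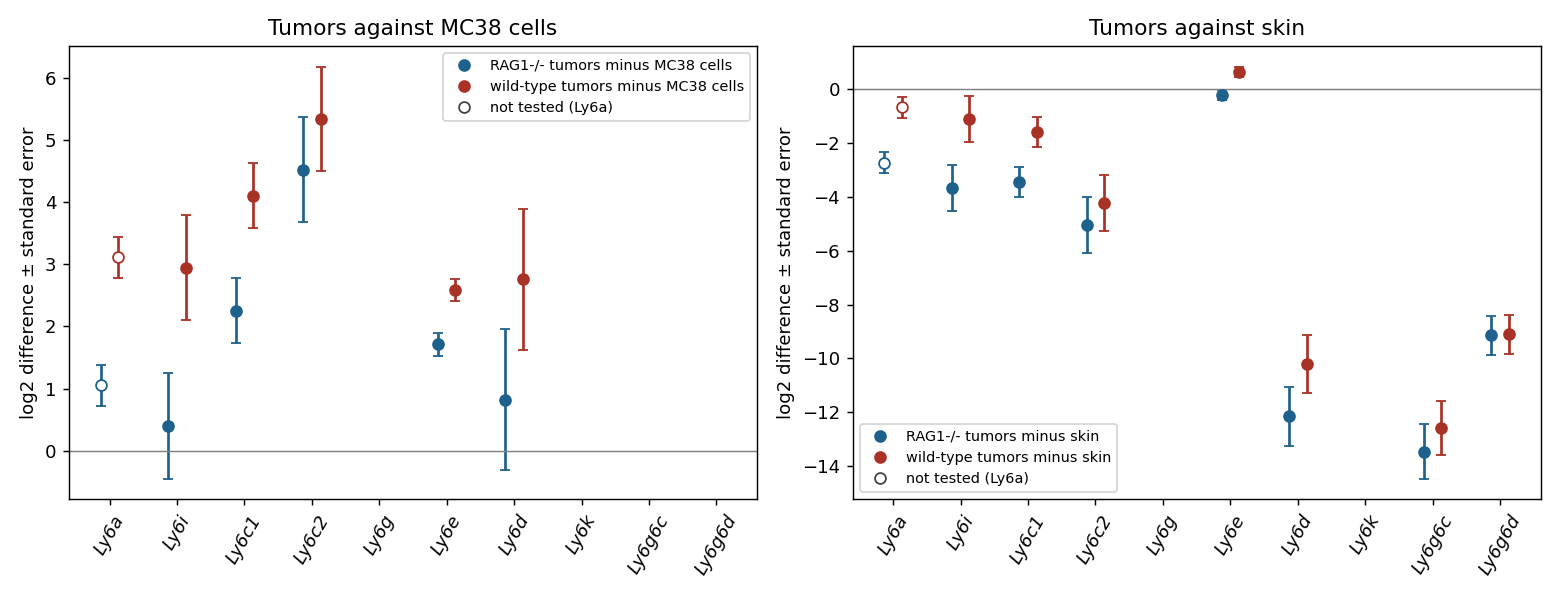
Points are log2 differences of the mean of the 6 tumors of a genotype from MC38 cells (left) or skin (right), bars are standard errors, and members that failed the filter have no point. Open points mark Ly6a, which was not tested. Against MC38 cells the differences run from 0.40 (Ly6i, RAG1-/-) to 5.34 (Ly6c2, wild-type), and against skin from -13.46 (Ly6g6c, RAG1-/-) to 0.65 (Ly6e, wild-type).

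Time within a genotype moved no member past the threshold. Between wild-type tumors of day 46 and day 23, limma called 0 of 14746 genes (0%, either direction), 0 of 6 members at an unadjusted p under 0.05, 1261 genes at that unadjusted level, and DESeq2 called 41 genes. Ly6a differed by -0.56 ± 0.35 (day 46 minus day 23, limma adjusted p = 0.674), with all 3 tumors of day 46 below all 3 of day 23 (exact permutation p = 0.1, the smallest that 3 against 3 allows). Ly6c1 differed by -0.66 ± 0.55 (limma adjusted p = 0.76) and Ly6e by 0.08 ± 0.19 (limma adjusted p = 0.935). Between tumors labelled RAG1-/- of day 23 and day 13, limma called 0 of 14746 genes (0%, either direction) and 0 of 6 members at an unadjusted p under 0.05, with 1722 genes at that level and 206 called by DESeq2. Ly6a differed by -0.50 ± 0.35 (day 23 minus day 13, limma adjusted p = 0.614), Ly6c2 by -1.27 ± 0.86 (limma adjusted p = 0.607) and Ly6e by 0.09 ± 0.19 (limma adjusted p = 0.905). Neither edgeR nor DESeq2 called a member in either comparison.

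Genes whose levels followed those of a member most closely were found by Pearson's r of log2 values over the 16 libraries, among 16158 genes. The libraries share their groups, and r over the 12 tumors after subtraction of group means is given second. The genes most like Ly6a were Nlrc5, the transactivator of MHC class I genes (0.952 and 0.782), Trbc1, a T cell receptor constant region (0.928 and 0.778), Sectm1a (0.927 and 0.57), Serpina3g (0.917 and 0.464) and Cd8a, the coreceptor of cytotoxic T cells (0.915 and 0.314). With Spearman's rho or a pseudocount of 5 the nearest 5 shared 2 genes with these. The genes most like Ly6e were H2-D1, an MHC class I heavy chain (0.961 and 0.748), Psmb9, an immunoproteasome subunit (0.96 and 0.698) and Iigp1, an interferon-induced GTPase (0.946 and 0.584). Those most like Ly6c2 were P2ry10 (0.95 and 0.903), Plxdc2 (0.944 and 0.959) and Smoc2 (0.94 and 0.837). Those most like Ly6d were the epidermal genes Klk7 (0.986 and 0.94), Dsp (0.981 and 0.896) and Dmkn (0.976 and 0.885).

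Lists of genes around the members were set beside them. In the contrast of genotypes, again without a test, 8 of 18 interferon gamma response genes had all wild-type tumors above all tumors labelled RAG1-/-, with a median log2 difference of 1.05, where 0.651% of all genes had this order and the median of all genes was 0.0065. None of 13 type I interferon response genes did, with a median of 0.01. T cell markers had a median of 3.75, with 3 of the 6 that passed the filter free of overlap. Their summed level was 24.4 to 292 normalized counts in wild-type tumors and 1.11 to 28.6 in tumors labelled RAG1-/-, and Cd3e, Cd3g and Cd8b1 were at 0 in the latter. B and plasma cell markers had a median of 3.61, with 2 of the 3 that passed the filter free of overlap. Summed interferon gamma response genes were at 11738 to 36460 normalized counts in wild-type tumors and 8377 to 12162 in tumors labelled RAG1-/-. The part of T cells and of this response in the Ly6 levels was not tested. Endothelial markers, which mark a cell type that carries Ly6c1 and Ly6a, summed to 449 to 1199 normalized counts in wild-type tumors and 471 to 1042 in tumors labelled RAG1-/-, with a median log2 difference of 0.17 and none of 7 genes free of overlap. Monocyte markers summed to 268 to 1861 and 207 to 1653 normalized counts. The 23 genes of GPI anchor synthesis and attachment had a median of 0.12, with none free of overlap.

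Against MC38 cells, tumors labelled RAG1-/- held more of all 18 interferon gamma response genes (median log2 difference 2.90) and of 12 of 13 type I interferon response genes (median 3.52), while 1 of 23 GPI anchor genes was called higher and none lower. All 7 macrophage, all 7 endothelial and all 4 monocyte markers were higher in them, with medians of 9.64, 4.11 and 4.89 beside a median of 0.06 over all genes. So were 5 of 6 fibroblast markers (median 3.34) and 4 of 5 neutrophil markers (median 2.60), where 15.8% of all genes were called higher. In wild-type tumors the same counts were 18 of 18 (median 3.93), 12 of 13 (median 3.24) and 1 higher and 1 lower of 23. Macrophage (7 of 7), endothelial (7 of 7), monocyte (4 of 4), fibroblast (5 of 6) and neutrophil markers (4 of 5) were higher there too, with medians of 9.72, 4.65, 5.59, 2.98 and 3.16, where 18.3% of all genes were called higher. T cell markers were called higher for 5 of 6 in wild-type tumors (median 3.99) and 0 of 6 in tumors labelled RAG1-/- (median 0.21). B and plasma cell markers were higher for 3 of 3 (median 3.55) and 1 of 3 (median 0.45). Their sums averaged 0.917 and 2.32 normalized counts in MC38 cells, so these markers passed the filter through the tumors. Macrophage, endothelial, monocyte and neutrophil sums averaged 43.4, 11.5, 29.3 and 12.8 normalized counts there, with genes of each list at 0 reads. Markers this low in MC38 cells could hardly be called lower in tumors, so nothing is read from their counts. The part of these cell types in the higher Ly6c1, Ly6c2 and Ly6e of the tumors was not tested.

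**Figure D4:**
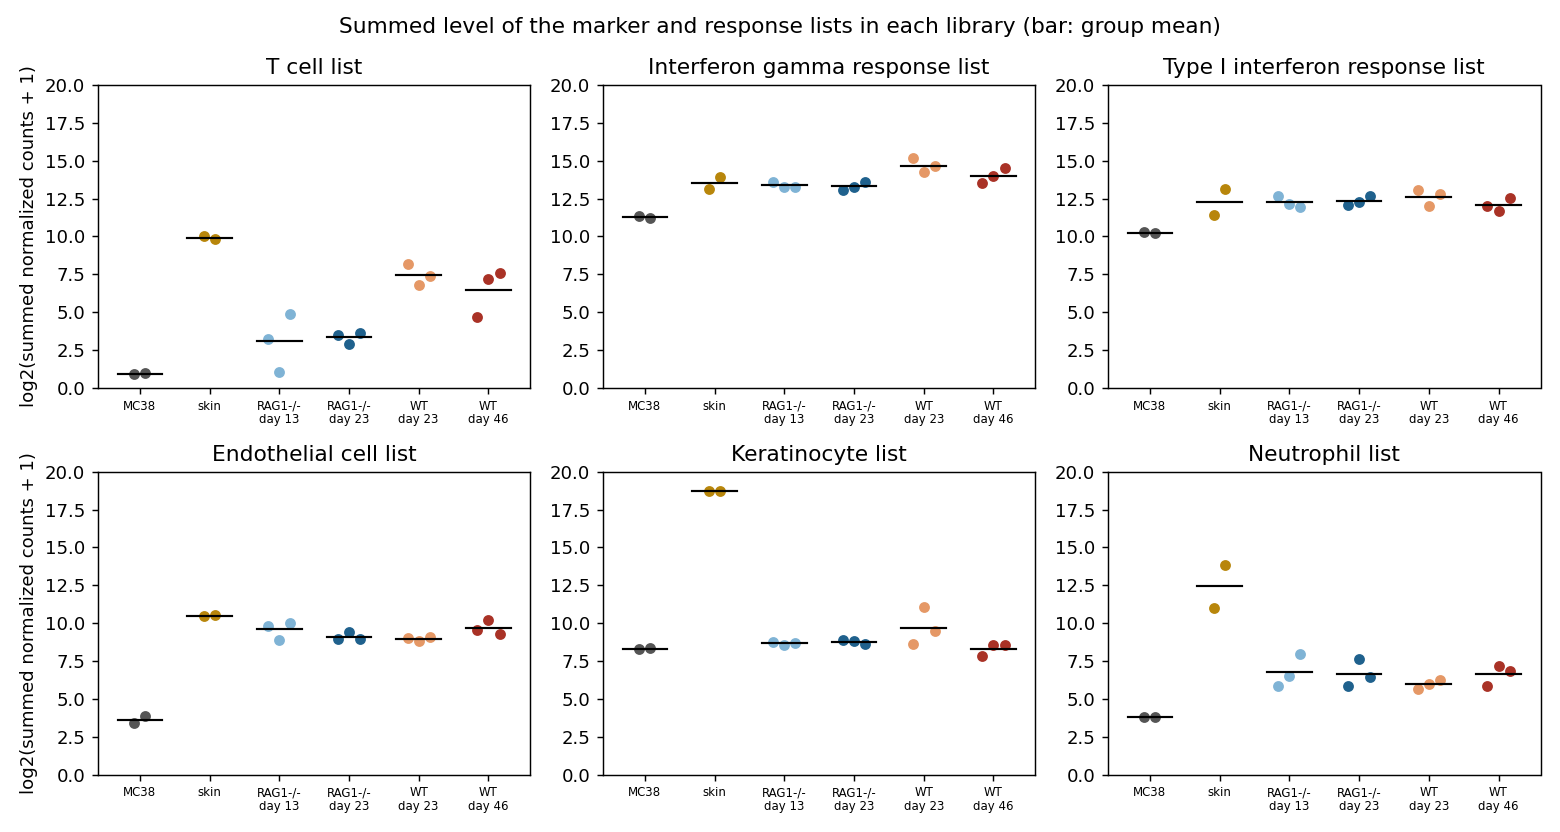
Each point is 1 library, the y axis is log2(summed normalized counts + 1) of a list and the bar is the group mean. T cell sums are 24.4 to 292 normalized counts in wild-type tumors and 1.11 to 28.6 in tumors labelled RAG1-/-, endothelial sums overlap between the genotypes, and keratinocyte sums are high in skin.

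The wider Ly6 and uPAR family served as comparison, with 27 of 31 listed relatives in the table. Of the 7 relatives tested in tumors against MC38 cells, 2 were called higher in both genotypes and none lower, beside 15.8% of all genes called higher in tumors labelled RAG1-/- and 18.3% in wild-type tumors. Gpihbp1, which anchors lipoprotein lipase on capillary endothelium, was higher by 7.54 ± 0.44 in tumors labelled RAG1-/- (log2 difference ± SE, limma adjusted p = 2.5e-10) and by 7.64 ± 0.44 in wild-type tumors (limma adjusted p = 1.77e-10). Cd59a, an inhibitor of the complement attack complex, was higher by 3.66 ± 0.65 (limma adjusted p = 0.000352) and 4.47 ± 0.65 (limma adjusted p = 3.82e-05). Both genes held 0 reads in MC38 cells and passed the filter through the tumors, so they could not be called lower. Of the 16 relatives tested between MC38 cells and skin, 14 were lower in MC38 cells and 1, Plaur, the urokinase receptor, was higher by 2.60 ± 0.47 (limma adjusted p = 0.00704), beside 41.2% of all genes called lower and 20.8% higher. Apart from Ly6g5b, Lynx1, Slurp1 and Plaur, these relatives averaged under 5 normalized counts in MC38 cells and passed the filter through skin only. They could hardly differ in the other direction, so their count supports nothing. Between genotypes none of the 7 relatives tested was free of overlap, and their median log2 difference was 0.10. Against skin, 10 of 14 relatives tested were lower and 2, Plaur and Gpihbp1, were higher in tumors of each genotype, beside 35.9% and 34.2% of all genes called lower in tumors labelled RAG1-/- and in wild-type tumors, and 23.9% and 22.8% higher. Of those lower, Ly6g5b, Ly6g6e, Lypd3, Lypd5, Lypd6, Lypd6b and Pinlyp averaged under 5 normalized counts in tumors of each genotype. They passed the filter through skin only, so their calls had to be lower ones. Slurp1 averaged 1.57 in tumors labelled RAG1-/-. Lypd3, a desmosome-associated relative of squamous epithelium, differed by -11.84 ± 0.29 between MC38 cells and skin (limma adjusted p = 8.97e-05).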

How the data were processed

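The authors prepared QuantSeq 3′ mRNA-Seq libraries from total RNA, sequenced them on an Ion Proton, trimmed reads with Cutadapt and Trimmomatic, removed reads under 22 nucleotides, aligned to mm10 with STAR and then Bowtie2, kept primary alignments, removed ribosomal reads, counted with HTSeq-count and normalized with DESeq2. The deposited values are a signal, namely normalized counts of genes. Annotation, strand setting and versions are not given in the sources used here. In all 16 libraries 100% of values were whole multiples of 1 read (tolerance 0.01), so reads were recovered. A second table, with 6 columns that match no label, was not used here.

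Differences were tested with limma 3.58.1 (R 4.3.3) with trend on log2(normalized count + 1), for genes averaging 5 or more in the libraries of a fit, two-sided, with Benjamini-Hochberg adjustment over all genes tested and a 0.05 threshold. The fits held MC38 cells with skin, or the 4 tumor groups, with MC38 or skin libraries added where compared. Alternatives took the recovered reads into DESeq2 1.42.0 and edgeR 4.0.16, beside other pseudocounts, filters, scalings, no trend, a replicate block, all libraries in 1 fit and each replicate left out. Fits were tested on simulated data, where 2-fold and 4-fold changes were recovered for 10.2% and 70.7% of genes between MC38 cells and skin, 38% and 88% between wild-type days, and 47.7% and 86% between tumors labelled RAG1-/- and MC38 cells. The changed genes were drawn only from genes with a higher mean than the filter asks, so these shares do not cover members near the filter. In the same order, 10, 7 and 12 unchanged genes were called. Members and gene lists were chosen with earlier results of these data known. All members are named, list genes may be, and the genes most like Ly6a (5), Ly6c2, Ly6e and Ly6d (3 each) are named by Pearson's r. Sequences were taken from RefSeq (GRCm38.p6) and GENCODE vM21. The labels number replicates without naming separate animals or cultures, so p-values measure the spread between these samples.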

Additional observations from a re-analysis of the deposited data

Results flagged for a closer look

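Among 17 checks of a member over the 6 tumors of a genotype, 6 had 1 tumor far from the others. Its gap to its neighbour was too large a part of the range for 6 values (Dixon's criterion at 95%). By this criterion chance picks about 1 in 20 among normally spread values, a rate that does not hold for counts near 0. For Ly6g and Ly6g6c in wild-type tumors and Ly6k in tumors labelled RAG1-/-, the other 5 tumors were at 0, so any value would be picked. The count of 6 is therefore not set against that rate. Wild-type day 23 replicate 3 held 1862 normalized counts of Ly6c1, where the other wild-type tumors held 572 to 1047. Wild-type day 23 replicate 2 stood apart for Ly6d (73.3 normalized counts), Ly6g6c (36.7) and Ly6g (3.41, 4 reads), and it also held the largest keratinocyte marker sum of the tumors, 2116 normalized counts. RAG1-/- day 13 replicate 3 held 10.5 normalized counts of Ly6g, from 11 reads, and the largest neutrophil marker sum of the tumors, 248. RAG1-/- day 23 replicate 3, the deepest library, held 2.21 normalized counts of Ly6k, from 5 reads, where the other 5 tumors labelled RAG1-/- were at 0.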

How the results depend on the processing

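The log2 difference of Ly6a between genotypes was 1.82 to 2.20 with 1 tumor left out and 2.05 to 2.59 under the other settings. Leaving out 1 library at a time, the members called were 2 to 3 for tumors labelled RAG1-/- against MC38 cells (2 without MC38 replicate 1), 4 to 6 for them against skin and 3 to 6 for wild-type tumors against skin (3 without skin replicate 2). The counts for MC38 cells against skin and for wild-type tumors against MC38 cells also moved, through the calls named with those comparisons. Without skin replicate 1 Ly6k also failed the filter of MC38 cells against skin. Where 1 library is left in a group, it is assumed to vary like the other groups. No count of members called moved by over 1.5 times under any other setting. Differences that changed sign were all short of the threshold. Between RAG1-/- days, Ly6e was -0.028 on the same total and -0.091 to 0.27 with 1 tumor left out, and Ly6c1 was 0.0031 with edgeR and -0.68 to 0.58 with 1 tumor left out. Between wild-type days with 1 tumor left out, Ly6i was -0.047 to 0.31 and Ly6e -0.036 to 0.21. Ly6i in tumors labelled RAG1-/- against MC38 cells was -0.23 with a pseudocount of 0.1 and -0.029 to 0.94 with 1 library left out, and Ly6e against skin was 0.17 on the same total. The causes were not tested.

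Replicate numbers did not pair the samples, since deviations of same-numbered tumors from their group means correlated at -0.153 to 0.0917. With the replicate number as a block, the counts of members called were as in the fit without the block: 9 for MC38 cells against skin, 0 for both comparisons of days, 3 and 4 for tumors labelled RAG1-/- and wild-type tumors against MC38 cells, and 6 and 6 for them against skin. With a floor of 1.33 to 6.38 normalized counts, depth limits what can be said of Ly6g, Ly6k and, outside skin, Ly6g6d.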
